A study of Mus musculus with 6 samples.

Results

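Acute phase proteins are plasma proteins that the liver makes in larger or smaller amounts during inflammation, infection or injury. Cytokines such as interleukin 6 and interleukin 1 act on hepatocytes through STAT3, C/EBP and NF-κB, and hepatocytes then transcribe the genes of the positive acute phase proteins. The proteins carry lipids and drugs, bind hemoglobin, and mark microbes and cell debris for removal. In the mouse, serum amyloid A and serum amyloid P are the reactants with the widest swings in plasma, while C-reactive protein, the leading reactant in humans, moves little.

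The genes of 10 such proteins were followed in livers whose β-catenin had lost the part that marks it for degradation. They are the genes of the orosomucoids (*Orm1*, *Orm2* and *Orm3*), of the serum amyloid A proteins (*Saa1*, *Saa2*, *Saa3* and *Saa4*), of haptoglobin (*Hp*) and of the pentraxins (*Apcs*, which encodes serum amyloid P, and *Crp*). They were chosen by gene symbol, and all 10 were found among the 31950 genes measured. RNA was sequenced from the livers of 3 WT and 3 β-cateninΔ(ex3)/+ mice, one library per liver. All 6 mice were labelled C57BL/6 and 8 weeks old, and the second group carried 1 β-catenin (*Ctnnb1*) allele without exon 3, the exon that holds the phosphorylation sites for degradation. Elsewhere in the study livers of this name come from mice in which tamoxifen switched on a Cre under the albumin promoter, which is active in hepatocytes. The RNA-seq methods do not name the Cre, and what the WT mice received and the sex of the mice are not given in the sources used here. The unit is FPKM, which counts fragments per length of transcript and per mapped fragment of the library, so levels of different genes can be set side by side.

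The groups also differed in other ways. All 8 genes of a young liver list were lower and all 8 of an adult liver list were higher in β-cateninΔ(ex3)/+ livers (limma, adjusted p under 0.05 and fold at least 2). Both lists were chosen with earlier results of these data known. In the adult list 3 genes were at 0 in each WT liver, and in the young list 1 was at 0 in each β-cateninΔ(ex3)/+ liver. These, and others near 0 in 1 group such as *Elovl3*, passed the filter on low values only through the group in which they were high. That filter was a mean of at least 0.5 FPKM over the 6 livers, so for these genes a difference was built into it. *Afp*, the gene of the fetal protein of the albumin family, stood at 608 ± 5.94 FPKM (SD, n = 3) in the WT livers, although these were labelled 8 weeks old, and at 2.55 ± 0.226 FPKM in the others. *Xist*, which is transcribed from an inactive X chromosome, was at 20.3 to 22.2 FPKM in WT and at most 0.0146 FPKM in β-cateninΔ(ex3)/+ livers, and the Y-linked *Eif2s3y* was at most 0.0169 FPKM and 9.20 to 9.94 FPKM. Genotype, the sex of the mice and the young and adult liver genes therefore cannot be told apart in any result below. Whether the adult liver list follows age or sex was not tested. Hepatocyte markers such as *Alb* were present in all 6 livers, but their level was not the same. The summed level of 7 such markers was 69276 to 72519 FPKM in WT and 34191 to 34449 FPKM in β-cateninΔ(ex3)/+ livers. Most of this sum was *Alb*, at a mean of 41434 FPKM in WT and 24841 FPKM in β-cateninΔ(ex3)/+ livers. The 7 did not move as one. Of the 7, 1 was called higher (*Hnf4a*) and 2 lower. In β-cateninΔ(ex3)/+ livers 3 of the 7 lay above every WT liver, 3 below and 1 overlapped. Over all genes tested 43.0% lay above and 23.0% below. The β-catenin target *Glul* was 103 ± 1.25 and 626 ± 7.13 FPKM in the 2 groups. In bulk tissue, fewer cells of a type and less RNA per cell cannot be told apart.

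The members lie in few places of the mouse genome (GRCm38). *Orm1* (chr4:63344560-63348163), *Orm3* (chr4:63356162-63359511) and *Orm2* (chr4:63362449-63365878) follow one another on the + strand. *Saa3* (chr7:46711998-46715700), *Saa4* (chr7:46727998-46732603) and *Saa1* (chr7:46740497-46742980) lie on the - strand beside *Saa2* (chr7:46751790-46754313) on the + strand. *Crp* (chr1:172698055-172833031, + strand) and *Apcs* (chr1:172893961-172895041, - strand) are also neighbours, and *Hp* (chr8:109575128-109579172, - strand) stands alone.

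Whether the copies can be counted apart depends on how far they differ. Over the coding sequence, *Orm1* and *Orm2* share 89.9% of their bases, *Orm1* and *Orm3* 86.1%, and *Saa1* and *Saa2* 95.1%. The longest run of bases that the mRNAs of *Orm1* and *Orm2* share is 141, and that of *Saa1* and *Saa2* is 99, so no window of 150 bases, the length of 1 read, is the same in both genes of a pair. Shorter shared stretches and split pairs can still move fragments between copies, and single-gene levels are less certain than the sums. The next lines show the first 60 coding bases of the orosomucoid genes (chr4:63344598-63344657, chr4:63362487-63362546 and chr4:63356200-63356259, + strand) and coding bases 92 to 151 of *Saa1* (chr7:46741335-46741394, - strand) and *Saa2* (chr7:46753418-46753477, + strand). All are within 1 exon, are read 5′ to 3′ on the gene's strand from GENCODE M21 transcripts, and are shown because they tell the copies apart. In *Orm1*, capitals mark bases at which another orosomucoid gene differs; in *Orm2*, *Orm3* and *Saa2* they mark differences from the first gene of the family, and in *Saa1* differences from *Saa2*.
Orm1: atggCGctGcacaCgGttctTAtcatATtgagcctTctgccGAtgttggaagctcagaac
Orm2: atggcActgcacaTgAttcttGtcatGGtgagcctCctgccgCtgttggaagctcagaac
Orm3: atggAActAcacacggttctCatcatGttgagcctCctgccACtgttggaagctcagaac
Saa1: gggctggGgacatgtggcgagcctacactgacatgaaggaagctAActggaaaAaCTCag
Saa2: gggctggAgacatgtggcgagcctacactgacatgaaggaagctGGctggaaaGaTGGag
Within these windows *Orm2* and *Orm3* each differ from *Orm1* at 8 of 60 bases, and *Saa2* from *Saa1* at 7.

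All 3 orosomucoid genes rose from traces to high levels. Orosomucoid, or α1-acid glycoprotein, is a plasma carrier of basic drugs and lipids. *Orm1* was at 0.880, 0.578 and 0.676 FPKM in WT replicates 1 to 3 and at 1816, 1857 and 1888 FPKM in β-cateninΔ(ex3)/+ replicates 1 to 3. Every β-cateninΔ(ex3)/+ liver was thus far above every WT liver, and the ratio between single livers ran from 2063 to 3267. On the log2(FPKM + 1) scale, which understates the change of genes with low levels, the difference was 10.09 (SE 0.069, limma adjusted p = 8.57e-09), the third largest increase among the 13243 genes tested. *Orm1* moved from rank 11751 to rank 41 of all 31950 genes by mean FPKM.

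*Orm2* was at 0.426, 0.368 and 0.472 FPKM in WT and at 319, 311 and 320.4 FPKM in β-cateninΔ(ex3)/+ livers. Its log2 fold change was 7.80 (SE 0.044, limma adjusted p = 4.16e-09). *Orm3* was listed at 0 in each WT liver and at 23.7, 23.8 and 21.2 FPKM in β-cateninΔ(ex3)/+ livers. For *Orm3* the fitted difference of 4.58 (SE 0.062, limma adjusted p = 7.79e-08) depends on the pseudocount and was 7.84 at a pseudocount of 0.1.

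The order *Orm1*, *Orm2*, *Orm3* held in every liver, but the spacing changed. *Orm1* stood 2.07, 1.57 and 1.43 times above *Orm2* in the WT livers, and 5.69, 5.98 and 5.89 times above it in the β-cateninΔ(ex3)/+ livers, and the groups did not overlap. The WT side of this ratio rests on few fragments. At depths estimated from steps in the low FPKM values (24.5 M to 24.8 M fragments in WT and 16.95 M to 19.6 M in β-cateninΔ(ex3)/+ livers), the WT values of *Orm1* stand for about 11.0 to 16.9 fragments and those of *Orm2* for about 7.02 to 8.96. Summed over the 3 genes, the orosomucoids were at 1.13 ± 0.181 FPKM (SD, n = 3) in WT and 2193 ± 35.7 FPKM in β-cateninΔ(ex3)/+ livers (log2 fold change 10.01, SE 0.066, limma adjusted p = 6.47e-09).

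**Figure D1:**
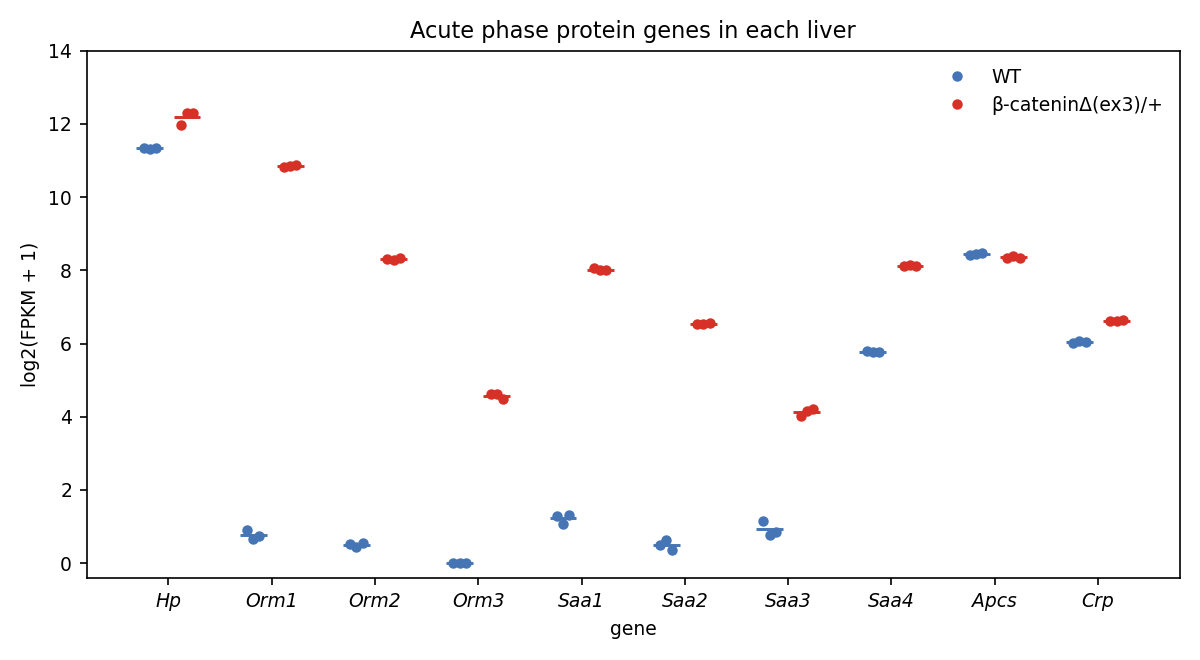
Level of each of the 10 acute phase protein genes in each liver, as log2(FPKM + 1); each point is 1 liver, in replicate order, and each bar is the mean of 3 livers. For every gene the 3 β-cateninΔ(ex3)/+ livers lie on one side of the 3 WT livers, below them for Apcs and above them for the other 9, and the gap is widest for Orm1 (0.711 FPKM in WT, 1853 FPKM in β-cateninΔ(ex3)/+).

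The plot of the levels by liver shows that the serum amyloid A genes started from 2 different positions. *Saa1* and *Saa2* encode the acute forms, which ride on high-density lipoprotein in plasma. *Saa1* was at 1.46, 1.11 and 1.47 FPKM in WT and at 264, 255 and 258 FPKM in β-cateninΔ(ex3)/+ livers. *Saa2* was at 0.411, 0.549 and 0.291 FPKM in WT and at 90.9, 92.5 and 94.1 FPKM in β-cateninΔ(ex3)/+ livers. Both were therefore under 1.5 FPKM in every WT liver and above 90 FPKM in every β-cateninΔ(ex3)/+ liver. Their log2 fold changes were 6.79 (SE 0.071, limma adjusted p = 3.96e-08) and 6.05 (SE 0.074, limma adjusted p = 5.57e-08), and that of their sum was 6.99 (SE 0.042, limma adjusted p = 4.53e-09). The ratio of *Saa1* to *Saa2* was 2.03 to 5.06 in WT and 2.74 to 2.91 in β-cateninΔ(ex3)/+ livers, so the ranges overlapped; the WT values of *Saa2* stand for about 4.32 to 8.20 fragments.

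*Saa4* encodes the constitutive form, which the liver also makes without inflammation. It was at 54.8, 53.8 and 53.2 FPKM in WT and at 278, 281 and 275 FPKM in β-cateninΔ(ex3)/+ livers, a log2 fold change of 2.34 (SE 0.029, limma adjusted p = 5.57e-08). WT livers held 36.2 to 48.3 times more *Saa4* than *Saa1*. In β-cateninΔ(ex3)/+ livers the ratio was 1.05 to 1.10, so *Saa4* stood just above *Saa1*. The sum of *Saa1* and *Saa2*, 347 to 355 FPKM, was above *Saa4* in each of these livers.

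*Saa3*, the form made by macrophages and adipocytes as well as hepatocytes, had the lowest level of the 10 in β-cateninΔ(ex3)/+ livers. It was at 1.22, 0.695 and 0.810 FPKM in WT and at 15.1, 16.7 and 17.4 FPKM in β-cateninΔ(ex3)/+ livers, a log2 fold change of 3.20 (SE 0.12, limma adjusted p = 4.27e-06). Markers of other cells moved with it. The summed level of 7 macrophage markers was 165 to 171 FPKM in WT and 307 to 309 FPKM in β-cateninΔ(ex3)/+ livers, with 3 of 7 called higher, 1 lower and none at 0 in either group. That of 3 adipocyte markers was 0 to 0.0942 FPKM in WT and 7.00 to 7.95 FPKM in β-cateninΔ(ex3)/+ livers, with both tested markers called higher. Both passed the filter on low values only through the β-cateninΔ(ex3)/+ livers, so for them a difference was built into the filter. Neutrophil markers went the other way, from 269 to 286 FPKM in WT down to 27.5 to 29.9 FPKM over 6 genes, with 4 of the 5 tested called lower and *Ly6g* at 0 in each β-cateninΔ(ex3)/+ liver. Their part in the *Saa3* result was not tested.

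Haptoglobin and the pentraxins were well expressed in both groups and differed by less than 2-fold. Haptoglobin binds free hemoglobin for uptake by the receptor CD163. *Hp* was at 2590, 2534 and 2606 FPKM in WT and at 4049, 5024 and 5064 FPKM in β-cateninΔ(ex3)/+ livers, and replicate 1 of the latter lay well below the other two. Its log2 fold change of 0.86 (SE 0.089, limma adjusted p = 0.000381) was under the fold threshold of 2, also without that liver (0.97). *Crp* was at 63.2, 66.0 and 64.5 FPKM in WT and at 96.4, 97.0 and 99.6 FPKM in β-cateninΔ(ex3)/+ livers, a log2 fold change of 0.59 (SE 0.033, limma adjusted p = 2.74e-05).

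*Apcs* was the single member with a lower mean in β-cateninΔ(ex3)/+ livers. It was at 341, 349 and 354 FPKM in WT and at 324, 334 and 321 FPKM in β-cateninΔ(ex3)/+ livers. The groups did not overlap, but the log2 fold change was only -0.094 (SE 0.029, limma adjusted p = 0.0355). Over the 13243 genes tested the median change was 0.14 on the same scale. After median-ratio scaling *Apcs* was at -0.29. That scaling rests on genes above 0 in every liver, and it moved *Apcs* by more than this median change. Across the alternative settings its adjusted p ran from 0.000539 to 0.130. *Apcs* and *Crp*, whose coding sequences are 57.8% identical, thus differed in direction although they lie side by side, and neither reached a fold of 2.

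With an adjusted p under 0.05 and a fold of at least 2, 7 of the 10 members were called higher, 0 lower, and *Hp*, *Apcs* and *Crp* were not called. Of all genes tested 12.7% were called, 8.17% higher and 4.52% lower. At any fold, all 10 members had an adjusted p under 0.05, 9 of them higher, against 57.0% of all genes tested and 37.4% for higher alone. The groups did not overlap for any of the 10 members, but this held for 66.0% of all genes tested (43.0% higher, as in 9 members, and 23.0% lower, as in *Apcs*). For such a gene the exact two-sided permutation test gives p = 0.1, which no gene can go below with 3 livers a side. All 10 members passed the filter on low values (a mean of at least 0.5 FPKM over the 6 livers), *Orm2*, *Orm3* and *Saa2* only through the group in which they were high, so for these 3 a difference was built into the filter. Of the 7 members that passed in the WT livers alone, 4 were called higher. The median log2 fold change of the 10 was 3.89, without *Orm3*, which has no bound against 0, it was 3.20, and over these 7 it was 2.34, against 0.14 over all genes tested.

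**Figure D2:**
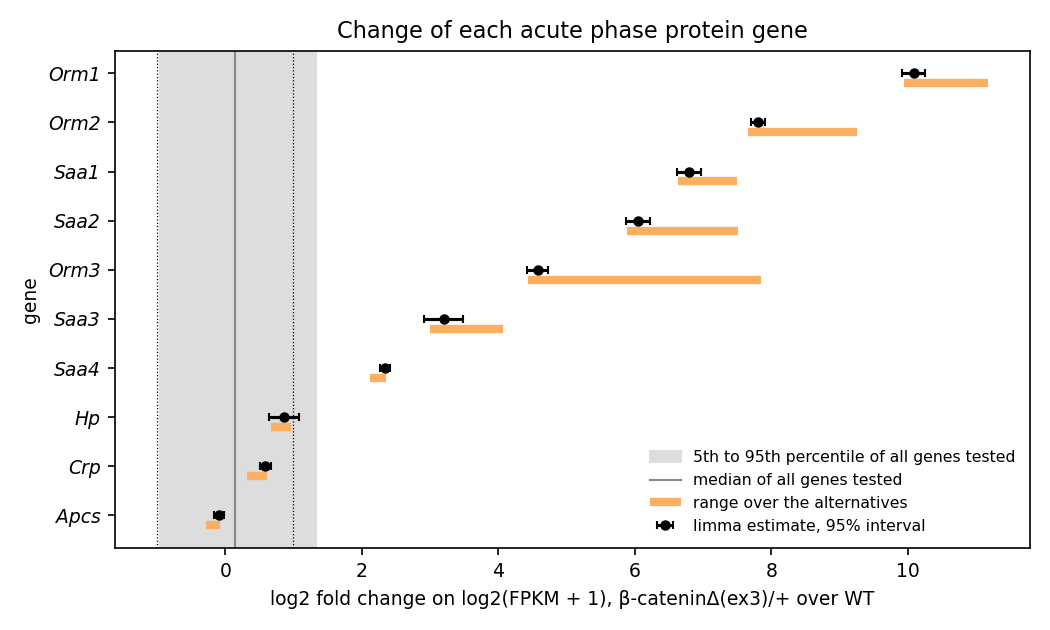
Log2 fold change of each member on the log2(FPKM + 1) scale, β-cateninΔ(ex3)/+ over WT, 3 livers each. Black points are limma estimates with 95% intervals, orange bars the range over 14 alternative settings, the grey band the 5th to 95th percentile of all 13243 genes tested (-0.96 to 1.34), the grey line their median and the dotted lines a fold of 2. The band was drawn from the main fit alone. The estimates and ranges of the 3 orosomucoid and 4 serum amyloid A genes lie above this band, while those of Hp, Crp and Apcs lie inside it.

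The changes reordered the class. In WT livers the order by mean FPKM was *Hp*, *Apcs*, *Crp* and *Saa4*, and the other 6 were all under 1.5 FPKM; among these, *Saa1* and *Saa3*, *Saa3* and *Orm1*, and *Orm2* and *Saa2* overlapped between livers and have no certain order. In β-cateninΔ(ex3)/+ livers the order was *Hp*, *Orm1*, *Apcs*, *Orm2*, *Saa4*, *Saa1*, *Crp*, *Saa2*, *Orm3* and *Saa3*, and no neighbours in it overlapped. The spread between livers was lower where the level was higher. The coefficient of variation of *Orm1* was 21.7% in WT and 1.95% in β-cateninΔ(ex3)/+ livers, and that of *Saa2* was 31.0% and 1.70%. *Hp* was an exception, with 1.48% and 12.2%.

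The sum of the 10 rose from 3054, 3006 and 3082 FPKM in WT to 7275, 8292 and 8357 FPKM in β-cateninΔ(ex3)/+ livers (log2 fold change 1.38, SE 0.056, limma adjusted p = 6.92e-06). They made up 0.684% ± 0.0100 (SD, n = 3) of all FPKM in WT and 1.70% ± 0.114 in β-cateninΔ(ex3)/+ livers. *Hp* gave 84.6% ± 0.257 of the sum in WT and 58.9% ± 2.85 in β-cateninΔ(ex3)/+ livers. The orosomucoids went from 0.0372% ± 0.00565 to 27.6% ± 1.80 of it, and the serum amyloid A genes from 1.86% ± 0.0433 to 8.13% ± 0.672. *Apcs*, whose own level hardly moved, fell from 11.4% ± 0.222 to 4.11% ± 0.314 of the sum. In FPKM the gain was largest for *Hp*, 2136 FPKM, and next for *Orm1*, 1853 FPKM, although their log2 fold changes were 0.86 and 10.09.

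**Figure D3:**
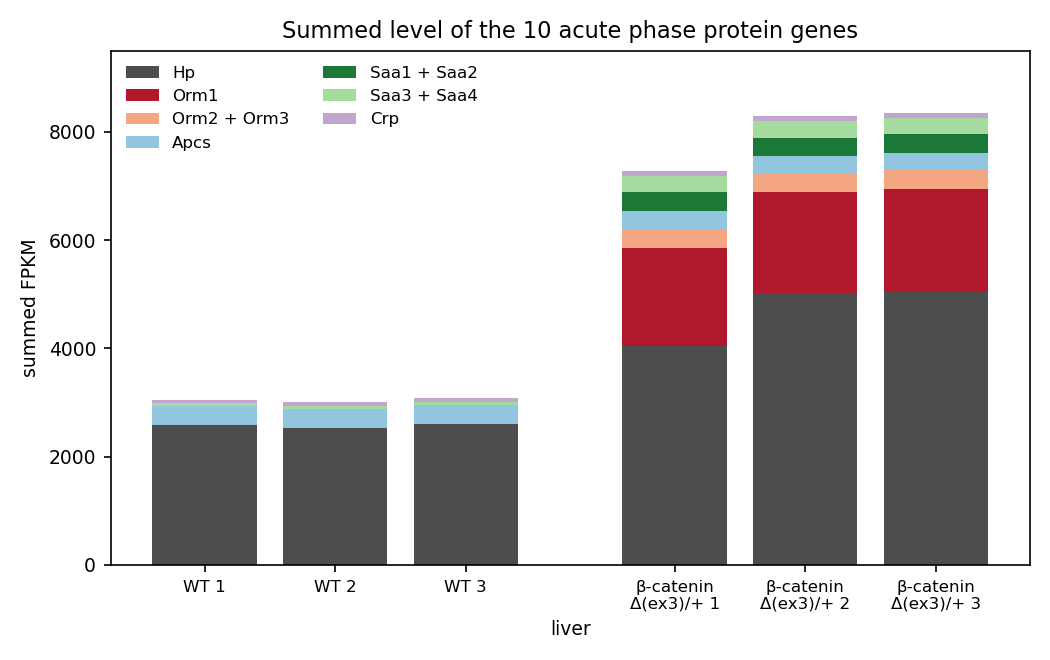
Summed FPKM of the 10 acute phase protein genes in each liver, stacked by gene or pair of genes on an axis from 0. The 3 WT bars reach 3006 to 3082 FPKM and are mostly Hp and Apcs, and the 3 β-cateninΔ(ex3)/+ bars reach 7275 to 8357 FPKM, with Orm1 as the second largest part and a lower Hp part in replicate 1.

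Sequence before the start was compared for the 8 members with a RefSeq promoter (GRCm38.p6), *Orm2*, *Orm3*, *Saa1*, *Saa2*, *Saa3*, *Saa4*, *Apcs* and *Crp*, because members with and without a large change can be set beside each other there. No promoter of *Orm1* or *Hp* was available, so the uncalled members in this comparison are *Apcs* and *Crp* alone. The motifs were chosen after the values were known, and both strands of the 250 bases before the start were searched. A C/EBP core, TTGCNNAA, was found in each of the 6 orosomucoid and serum amyloid A promoters, at 2 separate places in *Saa4*, and in neither pentraxin promoter. Of all 32851 promoters of this length, 9.56% hold one. The 6 are not independent: the 250 bases of *Saa1* and *Saa2* are 94.8% identical and those of *Orm2* and *Orm3* 85.5%. None of these matches overlaps a match of another motif searched. Promoters are printed 5′ to 3′ on the gene's strand, from 250 to 26 bases before the start, for *Orm2* (chr4:63362199-63362423, + strand), *Saa1* (chr7:46743006-46743230, - strand), *Saa3* (chr7:46715702-46715926, - strand), *Saa4* (chr7:46732629-46732853, - strand) and *Apcs* (chr1:172895080-172895304, - strand). For *Orm3* (chr4:63356025-63356056) and *Saa2* (chr7:46751638-46751669), both on the + strand, only the 32 bases around the match are given. Capitals mark the C/EBP match, and *Apcs* has none.
Orm2: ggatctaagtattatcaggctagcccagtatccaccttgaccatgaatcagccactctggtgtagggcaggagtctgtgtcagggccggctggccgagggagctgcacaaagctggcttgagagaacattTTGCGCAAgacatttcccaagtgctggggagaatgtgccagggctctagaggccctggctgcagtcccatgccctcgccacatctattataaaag
Orm3: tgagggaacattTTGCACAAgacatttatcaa
Saa1: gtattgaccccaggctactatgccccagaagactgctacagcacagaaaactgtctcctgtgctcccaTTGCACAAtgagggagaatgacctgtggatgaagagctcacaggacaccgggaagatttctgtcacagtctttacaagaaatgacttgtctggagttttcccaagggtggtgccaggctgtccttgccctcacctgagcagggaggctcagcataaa
Saa2: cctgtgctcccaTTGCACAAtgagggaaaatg
Saa3: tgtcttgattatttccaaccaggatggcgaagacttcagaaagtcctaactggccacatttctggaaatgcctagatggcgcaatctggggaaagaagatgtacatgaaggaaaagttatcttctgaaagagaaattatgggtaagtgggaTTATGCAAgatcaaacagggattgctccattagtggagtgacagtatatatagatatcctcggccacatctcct
Saa4: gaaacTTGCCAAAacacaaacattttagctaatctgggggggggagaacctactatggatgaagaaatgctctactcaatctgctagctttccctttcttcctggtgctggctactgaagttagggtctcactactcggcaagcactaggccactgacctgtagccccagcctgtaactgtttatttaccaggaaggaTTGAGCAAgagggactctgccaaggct
Apcs: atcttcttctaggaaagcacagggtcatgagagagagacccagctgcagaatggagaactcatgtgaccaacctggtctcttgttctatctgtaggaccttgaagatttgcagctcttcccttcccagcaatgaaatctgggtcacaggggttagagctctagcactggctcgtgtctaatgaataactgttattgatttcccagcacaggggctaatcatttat
The match ends 113 bases before the start in *Orm2* and 114 in *Orm3*, 175 in *Saa1* and 176 in *Saa2*, and 92 in *Saa3*. In *Saa4* the matches end 238 and 45 bases before it. An NF-κB pattern, 3 G and 2 C with 5 bases of any kind between them, which 45.8% of all promoters hold, was found in *Saa1*, *Saa2*, *Saa4* and *Crp*. A STAT pattern, TTCNNNGAA, found in 7.02% of all promoters, was found in *Apcs*, a member that was not called. Neither GTTAAT, part of the HNF1 site (6.43% of all promoters), nor CTTTGAT, a site of the TCF/LEF partners of β-catenin (3.21%), was found in the 8. These are matches of letters, not shown to be bound, and binding data were not analysed here.

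**Figure D4:**
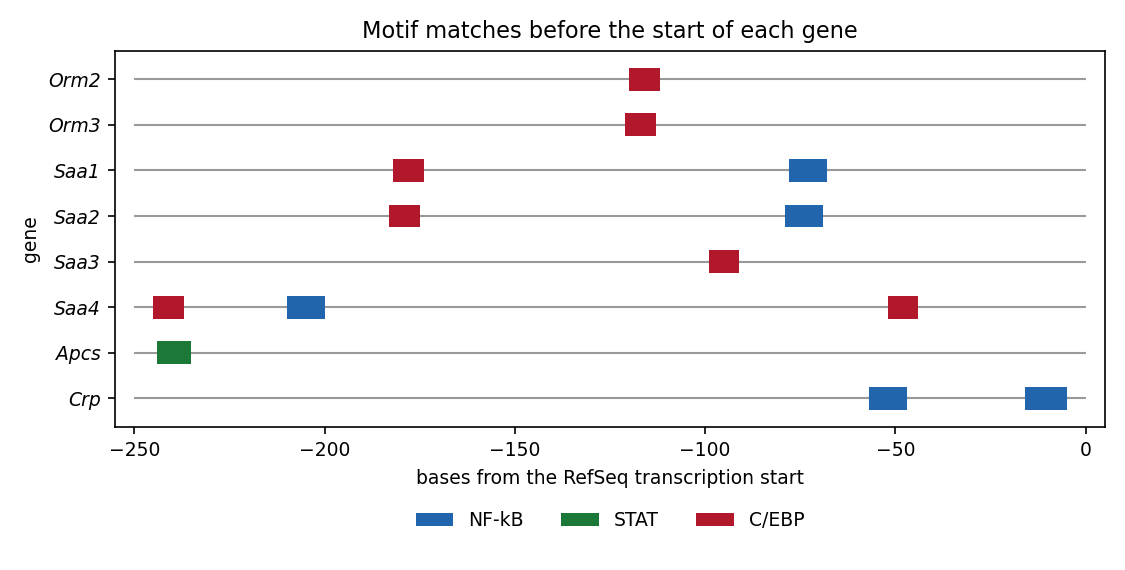
Places of the motif matches in the 250 bases before the RefSeq start of 8 members; the horizontal axis is the distance from the start in bases, each row is a gene, and coloured blocks are matches to the C/EBP, NF-κB and STAT patterns on either strand. C/EBP blocks stand at nearly the same distance in Orm2 and Orm3 and in Saa1 and Saa2, and Apcs and Crp have none.

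Other acute phase genes moved in both directions. The counts of this and the other lists stand beside shares of 8.17% higher and 4.52% lower over all genes tested. Of 33 other positive acute phase genes, all tested, 8 were called higher and 4 lower, and their median log2 fold change was -0.17. Among those past both thresholds, the serpin gene *Serpina3k* went from 32.5 ± 2.38 to 2818 ± 12.5 FPKM (SD, n = 3), a log2 fold change of 6.40 (limma adjusted p = 1.49e-08). The other *Serpina3* genes of the list, *Serpina3n* (-0.71) and *Serpina3m* (0.12), named after their values were seen, were not called. *Hamp*, which encodes the iron hormone hepcidin, changed by 3.62, *Lrg1*, a leucine-rich plasma glycoprotein, by 3.18, and *Lcn2*, which binds bacterial siderophores, by 2.95 on the same scale. The 4 called lower, named after their values were seen, were the metallothioneins *Mt1* (-2.65) and *Mt2* (-1.40), the protease inhibitor *A2m* (-2.29) and the angiotensinogen gene *Agt* (-1.13, under the fold threshold without WT replicate 1). The fibrinogen genes *Fga*, *Fgb* and *Fgg*, classical positive reactants named here after their values were seen, were at -0.41, -0.35 and -0.29 and were not called. Of 14 negative acute phase genes, whose products fall in plasma during inflammation, 3 were called lower and 0 higher, with a median of -0.44. The 3 were *Ahsg* (fetuin A, -2.52), *Apoa1* (-2.01) and *Ttr* (transthyretin, -1.41).

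Among genes upstream of the members, no cytokine gene was called and 7 receptor and signalling genes were called higher. Of 10 inducing cytokines, 9 were measured and 3 passed the filter on low values (*Il1a*, *Il1b* and *Tnf*). These had limma adjusted p under 0.05 at folds under 2, with log2 fold changes of -0.91, 0.36 and 0.65, and *Il1a* was called lower in 5 and *Tnf* called higher in 1 of the alternatives. *Il6*, named after its values were seen, was at most 0.118 FPKM in a WT liver and at most 0.0243 FPKM in a β-cateninΔ(ex3)/+ liver. Of 22 receptor and signalling genes tested, 7 were called higher and 1 lower, and the median was 0.55. The leukemia inhibitory factor receptor gene *Lifr* (3.08) and *Socs3* (1.48), a feedback inhibitor of interleukin 6 signalling, were higher, and *Socs2* (-1.81), a feedback inhibitor of growth hormone signalling, was lower. *Stat3* itself, named after its values were seen, was at 0.44 and was not called.

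Of 17 transcription factor genes of the acute phase, 2 were called higher and 1 lower, with a median of 0.51. Over all genes tested 8.17% were called higher and 4.52% lower, so these counts are not read as a result about the factors. *Cebpb*, which encodes C/EBPβ, was at 34.9, 16.5 and 31.8 FPKM in WT and 89.9, 81.9 and 86.7 FPKM in β-cateninΔ(ex3)/+ livers (log2 fold change 1.67, SE 0.27, limma adjusted p = 0.00276). WT replicate 2 was low and gave most of the spread, and the groups did not overlap. *Hnf4a*, a main regulator of hepatocyte genes, changed by 1.10 and was no longer called after median-ratio scaling or quantile normalization, where it was as low as 0.86. *Creb3l3*, a liver factor of the endoplasmic reticulum that acts on *Apcs* and *Crp*, changed by -1.39. After either of these scalings 1 transcription factor gene was called higher.

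Receptors and partners of the member proteins are mostly known from macrophages and other cells outside the hepatocyte. Of 14 tested, 5 were called higher and 0 lower, with a median of 0.68. The complement genes *C1qa*, *C1qb* and *C1qc*, whose product is bound by pentraxins, changed by 1.56, 1.20 and 1.32, and the Fc receptor gene *Fcgr1*, whose product also binds pentraxins, by 1.56. *Cd163*, the receptor for haptoglobin bound to hemoglobin, was at 1.03, 1.31 and 1.14 FPKM in WT and 3.69, 3.40 and 3.12 FPKM in β-cateninΔ(ex3)/+ livers, a log2 fold change of 1.03 (limma adjusted p = 0.000108) that fell under the fold threshold in 4 of 14 alternatives. The summed macrophage markers given above moved the same way, and their part in this result was not tested. After quantile normalization 3 of these genes were called higher.

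**Figure D5:**
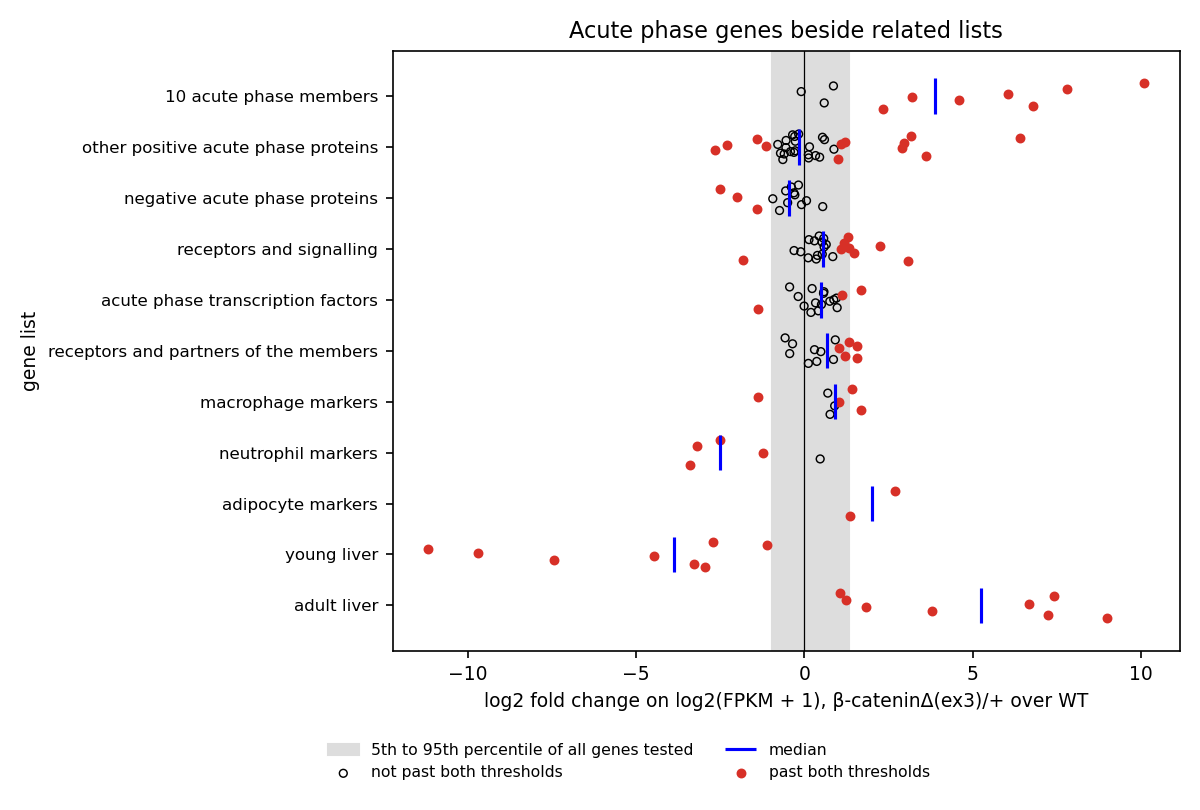
Log2 fold changes on the log2(FPKM + 1) scale, β-cateninΔ(ex3)/+ over WT, of the 10 members and of the tested genes of 10 other lists; each point is 1 gene, filled red where it passed both thresholds, blue lines are medians and the grey band is the 5th to 95th percentile of all genes tested. The median of the members (3.89, or 2.34 over the 7 that passed the filter in WT alone) lies right of the band, that of the other positive acute phase genes (-0.17) lies inside it, and the young and adult liver lists spread to opposite sides. The lists were chosen with earlier results of these data known.

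The genes whose pattern over the 6 livers was nearest to each member's were found by the distance between log2(FPKM + 1) values centred on each gene's mean, among 1846 other genes with a mean of at least 20 FPKM. With 2 groups this mostly finds genes with a like change. For *Orm1* they were the major urinary protein genes *Mup12* (distance 0.34) and *Mup22* (0.65), and for *Orm2* *Mup10* (0.42) and *Obp2a* (0.48). The 4 were listed at a mean of 0 FPKM in WT livers, and the major urinary protein genes are near-identical copies between which fragments can be split. *Obp2a* is also in the adult liver list, whose change cannot be told apart here from genotype or sex. *Orm3* was nearest to *Nat8f2* (0.19) and *Aldh1a7* (0.20), *Saa1* to *Wfdc21* (0.20) and *Mug2* (0.21), and *Saa2* to *Aldh1a1* (0.34) and the acute phase gene *Serpina3k* (0.44). *Saa3* was nearest to *Idi1* and *Isyna1*, *Saa4* to *Cyp4v3* and *Apon*, and *Hp* to *mt-Ti* and *Tmem250-ps*. For *Crp* they were the acute phase gene *Fgl1* (0.037) and *Dbi* (0.039), and for *Apcs* *Serpina1d* (0.057) and *Sdhc* (0.067).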

How the data were processed

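RNA from 3 WT and 3 β-cateninΔ(ex3)/+ livers was compared; the groups are those of the sample labels. The authors deposited 1 table with the FPKM of 31950 genes in each liver. The submitters' processing notes name cutadapt 1.9, HISAT2 2.0.4, StringTie 1.3.4d, DESeq2 and edgeR. The libraries were poly(A)-selected and mark the strand; the strand setting of the counting is not given in the sources used here. All 10 members have the coordinates of GENCODE M21, and 0 columns were left unused. FPKM are not counts, so no count test was run and no counting intervals are given.

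From the FPKM, log2(FPKM + 1) was computed for the 13243 genes whose mean FPKM reached 0.5 and fitted over 6 livers with limma 3.58.1 (eBayes, trend on the mean level) under R 4.3.3, with Benjamini-Hochberg adjustment over all genes tested. Genes with an adjusted p under 0.05 and a fold of at least 2 were called. The test was tested on simulated data of 13242 genes with independent normal noise and recovered 95.0% of 200 changed genes. The changed genes were drawn from those better expressed in WT, and all were given changes above the fold threshold. The recovery therefore does not cover genes as low in WT as *Orm1*, *Orm2*, *Orm3*, *Saa2* and *Saa3*. Nothing says whether livers were handled separately beyond their labels, so p-values measure the spread between these livers. Fragment depths were estimated from steps in the low values of 8644 single-exon genes. Many depths were tried, and 1 was picked per liver for the high share of values that it put on a step. At that depth 15.8% to 21.8% of the lowest non-zero values per liver lay on a step. The median share over the depths tried was 1.93% to 2.38%, and a fixed depth would give 4% by chance. Most of these values lay on no step, so the fragment numbers are rough.

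The members, the gene lists and the tests were chosen with earlier results of these data known. The genes named are all members, in each list up to 4 genes past both thresholds by size, receptors of members, and the 2 nearest genes in pattern per member; 1 further gene is not reported here. Promoters and their coordinates are from RefSeq, GRCm38.p6, and transcripts from GENCODE M21. Alternatives were a pseudocount of 0.1, other filters, median-ratio, quantile and total scaling, eBayes without a trend, a replicate block, other thresholds, and leaving out each liver once. Python 3.11.15 with pandas 2.3.3 was used for the rest.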

Additional observations from a re-analysis of the deposited data

How the results depend on the processing

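The 7 members called higher stayed called and the other 3 stayed uncalled in each of 14 alternatives, 140 comparisons in all. The log2 fold changes ran from 9.94 to 11.17 for *Orm1*, 4.43 to 7.84 for *Orm3*, 0.67 to 0.97 for *Hp*, -0.29 to -0.081 for *Apcs* and 0.32 to 0.61 for *Crp*. At any fold, 9 members had an adjusted p under 0.05 and were higher. For all genes tested, a pseudocount of 0.1 gave 2705 calls (1706 higher) against 1680 (1082 higher), any fold 7551 (4952 higher) and a log2 fold change of at least 1.5 gave 759 (521 higher); the cause of the pseudocount's effect was not tested. Of 1604 calls after median-ratio scaling 851 were higher, and of 1609 after quantile normalization 797. With the replicate block 1673 genes were called, 1075 higher, and the same number of members (7); *Apcs* then had an adjusted p of 0.0787 (limma). Livers with the same number correlated in their deviations from the group means by -0.039, -0.013 and 0.15, and those with different numbers by -0.10 to 0.10. The highest value was thus from a pair with the same number, and so few livers cannot settle whether the numbers pair them. Values of a few fragments limit the WT levels of *Orm1*, *Orm2*, *Saa1*, *Saa2* and *Saa3*, and an exact 0 can be a failed estimate. In 9 genes of WT and 6 of β-cateninΔ(ex3)/+ livers, 1 liver lay under 2% of the others, which were at 5 FPKM or more.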

Other observations

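Genes of iron and blood handling, which share ground with haptoglobin, did not move as one. Of 10 genes of heme and iron handling, all tested, 2 were called higher (*Hpx* and *Cd163*) and 1 lower; the count of higher calls was 0 after median-ratio scaling, without WT replicate 1 and without β-cateninΔ(ex3)/+ replicate 1. Hemopexin (*Hpx*), which binds free heme in plasma, was at 2640, 2717 and 2683 FPKM in WT and at 5393, 5337 and 5360 FPKM in β-cateninΔ(ex3)/+ livers, a log2 fold change of 1.001 (limma adjusted p = 3.08e-07) that sits at the threshold and fell under it in 4 of 14 alternatives. *Hmox1*, the heme-degrading enzyme, changed by -1.06. Of 7 erythroid markers tested 4 were called lower and 0 higher, and the summed level of all 8 was 3304 to 3647 FPKM in WT and 1810 to 1873 FPKM in β-cateninΔ(ex3)/+ livers. Of 8 glucocorticoid targets, 3 were called higher, among them *Tat* (2.75), and 3 lower, among them *Pck1* (-1.45), and the median was 0.059.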
